A study of Drosophila melanogaster with 13 samples.

Results

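The comparison described here set heads of flies that carry mutations in both egg and Su(var)3-9 against heads of flies that carry the egg mutation alone, and so measured the difference that goes with adding the Su(var)3-9 mutation on an egg heterozygous background. Its members were the 3 double mutant arrays and the 3 egg mutant arrays named in the sample titles, which are 6 of the 12 arrays with values and of 13 samples in all. RNA from whole adult heads was hybridised to Affymetrix expression arrays, with flies raised at 25 °C and 70% humidity. The egg mutant flies were yw; egg235/CyO and the double mutants were yw; egg235/CyO; Su(var)3-906. The other groups, 3 arrays each, were Su(var)3-9 mutants (yw; +/CyO; Su(var)3-906) and controls (yw; +/CyO). All 4 groups thus shared the yw background and the CyO balancer chromosome, and every egg mutation was carried over that balancer. The labels give neither age nor sex, and they do not say how many copies of the Su(var)3-9 allele a fly carried. The labels do not say whether the rest of the chromosome that carries the Su(var)3-9 allele was matched between the stocks, so the allele and its chromosome cannot be told apart. The annotation used here names egg and Su(var)3-9 at no probe set, so their own transcripts were not analysed here and give no check of the genotype labels.

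Both mutated genes encode enzymes that methylate histone H3 on lysine 9, a mark of silenced chromatin. egg (eggless) is the fly counterpart of SETDB1 and acts in the germline, along the euchromatic arms and on the small chromosome 4. Su(var)3-9 was identified as a suppressor of position effect variegation and acts mainly in the heterochromatin around the centromeres. The methyl mark is bound by HP1 proteins, of which HP1a is the founding member. In heads, most RNA comes from brain, eye, fat body, muscle and cuticle cells.

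The 4 genes that rose most encode proteins made in the fat body, among them the storage protein Lsp2. Of the 12 largest rises, 4 were enzymes of one-carbon and glycine metabolism, a theme noticed after the values were seen. The largest falls were mostly in genes of the gut. Dup99B of the male ejaculatory duct and the chorion gene Cp15 were also among the 12 largest. These tissues lie outside the head. In a limma fit over 18769 probe sets, 2915 passed an adjusted p under 0.05 (Benjamini-Hochberg over all probe sets), which is 15.5% of those tested. Of these, 1485 were higher and 1430 lower in the double mutant. The falls were the larger: 425 probe sets were at least 2-fold lower and 136 at least 4-fold lower, against 155 and 15 that were higher by as much. The lowest and highest arrays of the 2 groups did not overlap at 7382 probe sets, or 39.3%. With each gene taken at its brightest probe set, 1151 of 11982 genes rose, or 9.61%, and 1215 fell, or 10.1%. The counts given for gene lists below are to be read beside these 2 shares. The split depended on scaling. With arrays centred on their medians the median difference over all probe sets moved from 0.034 to 0.162 (log2), and 3765 probe sets were higher and 980 lower, so that the higher share of calls went from 50.9% to 79.3%.

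**Figure D1:**
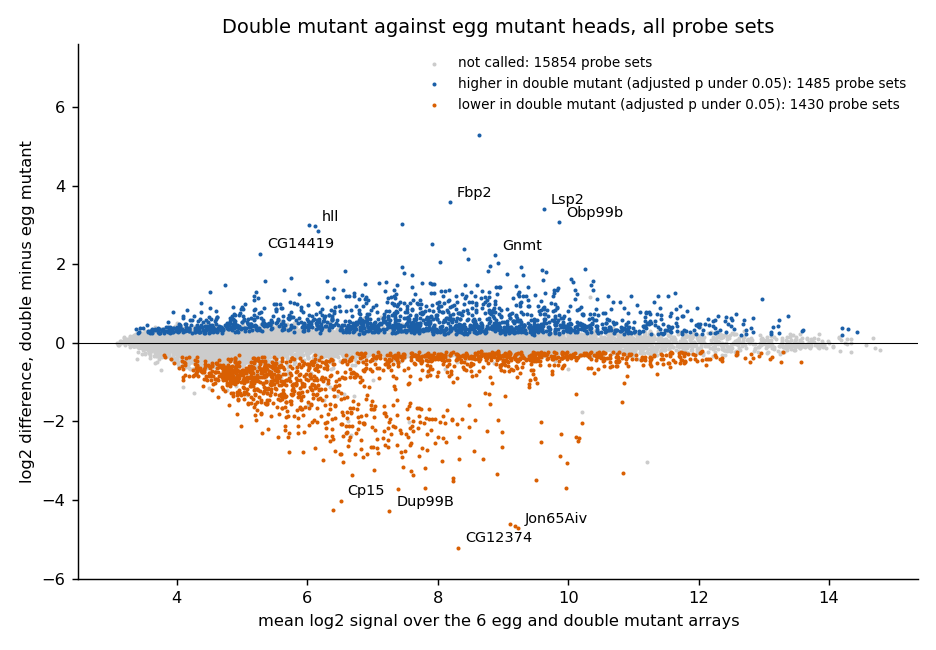
Each point is 1 of the 18769 probe sets, with its mean log2 signal over the 6 arrays on the horizontal axis and the log2 difference of double minus egg mutant on the vertical axis; colours mark the 1485 probe sets that passed higher and the 1430 that passed lower. The falls reach further than the rises, and the point above 5 on the vertical axis is a probe set of CG40485.

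The egg arrays correlated with each other at 0.996 to 0.9978 over all probe sets, the double mutant arrays at 0.994 to 0.9969, and arrays of the 2 groups at 0.9787 to 0.9898. These ranges do not overlap. The double mutant arrays were less alike among themselves at the genes that fell: over the 380 genes at least 2-fold lower, the median SD was 0.477 in the double mutant and 0.164 in the egg mutant. At 335 of these 380 genes, double mutant replicate 2 was the array nearest to the egg mutant. Over the 123 genes at least 2-fold higher the median SDs were 0.116 and 0.102, and replicate 2 was nearest at 19.

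Fbp2, a fat body protein of the alcohol dehydrogenase family, read 5.83, 6.90 and 6.45 (log2 signal) on the egg arrays and 9.89, 10.15 and 9.87 on the double mutant arrays. All 3 double mutant arrays lay above all 3 egg arrays, as the rule for picking the 12 largest rises and falls required. The rise was 3.57 ± 0.29 (SE, n = 3 per group), or 11.9-fold (limma adjusted p = 6.20e-06). Lsp2, a larval serum storage protein, read 7.59, 8.38 and 7.80 against 11.33, 11.27 and 11.38, and rose by 3.40 ± 0.27. Fbp1, the fat body receptor for storage proteins, rose by 3.02 ± 0.25 from a mean of 5.95. Obp99b, an odorant binding protein made in the fat body, read 8.10, 8.63 and 8.23 against 11.33, 11.59 and 11.25, and rose by 3.07 ± 0.13 (limma adjusted p = 4.53e-08).

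In the Su(var)3-9 mutant these 4 genes were also above the egg arrays. Fbp2 averaged 10.20 there and Lsp2 11.25, and the double mutant differed from these by -0.24 and 0.08 (adjusted p = 0.752 and 0.933, limma). Fbp1 was 0.93 lower and Obp99b 0.42 lower in the double mutant than in the Su(var)3-9 mutant, and neither passed (adjusted p = 0.0548 and 0.093, limma). That second comparison, in which 971 probe sets or 5.17% passed, shares the 3 double mutant arrays with the first, so the 2 are not independent. Among 21 measured genes of the fat body there were 6 rises and 3 falls, and the list's median was 0.09 against -0.003 over all genes. Beside the 4 above, the rises included bmm, a triglyceride lipase (0.85 ± 0.08), and with any egg or double mutant array left out 5 of the 6 rises were counted. The falls were in fit (-0.62 ± 0.18), a peptide of the female fat body, Cyp4d21 (-0.41 ± 0.11) and Lsd-1, which coats lipid droplets (-0.40 ± 0.11). These 3 calls were all lost when any of the egg arrays, or double mutant replicate 1 or 3, was left out, and under median centring. The yolk protein genes Yp1, Yp2 and Yp3, which are transcribed in the female fat body, differed by -0.03, 0.09 and -0.06 and did not pass. In RNA of whole heads, more fat body cells and more RNA per fat body cell cannot be told apart.

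**Figure D2:**
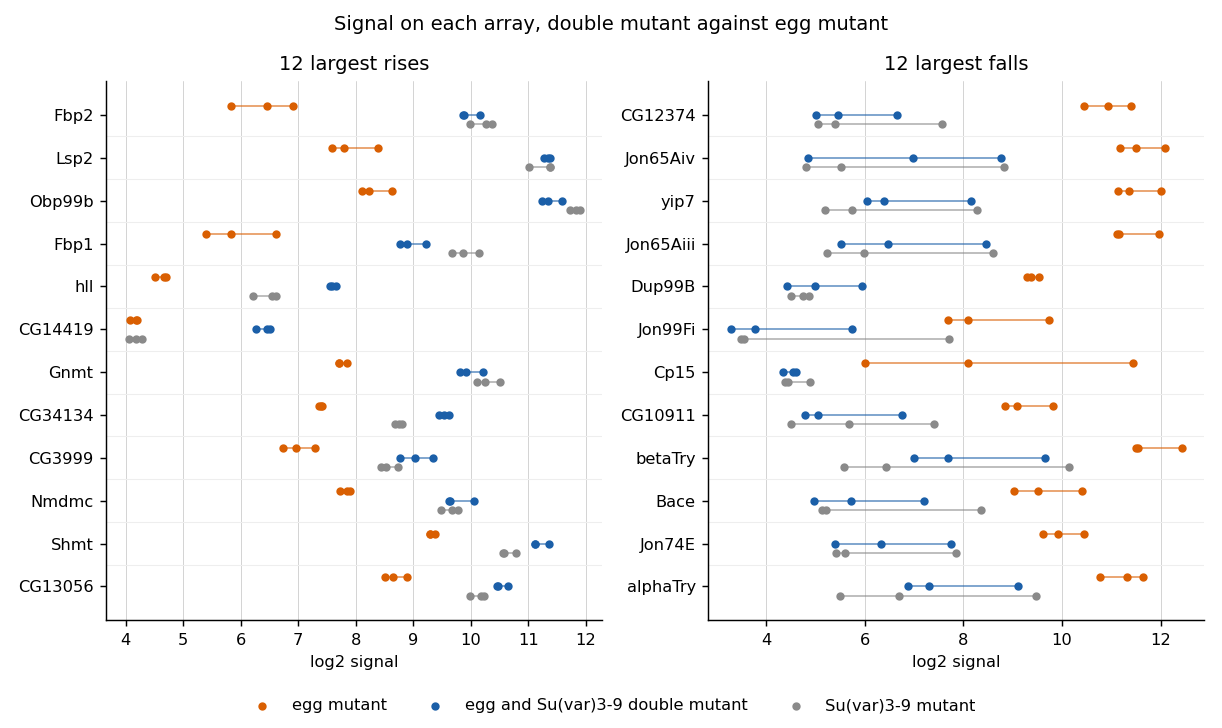
Each point is 1 array, with the log2 signal of the 12 genes that rose most (left) and the 12 that fell most (right) in the egg mutant, the double mutant and the Su(var)3-9 mutant, 3 arrays each; lines join the lowest and highest array of a group. Only genes without overlap of the egg and double mutant arrays could be picked. The choice thus fixed that the double mutant lies above the egg mutant on the left and below it on the right. The double mutant spread is wider on the right.

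Gnmt, CG3999, Nmdmc and Shmt, of the 12 largest rises, belong to folate-linked one-carbon metabolism and glycine breakdown, which were described together with purine synthesis. These pathways pass single carbons from serine and glycine to folate and from there to the purine ring and to methionine, the source of S-adenosylmethionine for methylation. Because the list of 29 genes was drawn up after the values were seen, its count is a description and no support. Of the 29 genes, 23 rose and none fell, with a median of 1.05, and 15 rose at least 2-fold. Between 20 and 25 of them passed higher under every alternative with no minimum fold.

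Gnmt, which uses up S-adenosylmethionine by methylating glycine, read 7.85, 7.72 and 7.71 on the egg arrays and 9.92, 10.22 and 9.81 on the double mutant arrays. The gene rose by 2.23 ± 0.17 (limma adjusted p = 3.33e-06). Shmt, which splits serine into glycine and a folate-bound carbon, read 9.28, 9.37 and 9.30 against 11.12, 11.36 and 11.11, and rose by 1.88 ± 0.10, or 3.68-fold. Nmdmc, a mitochondrial folate dehydrogenase, rose by 1.96 ± 0.14, and pug, a trifunctional folate enzyme, by 1.54 ± 0.11. CG3999 and CG6415, which encode subunits of the glycine cleavage system, rose by 2.05 ± 0.16 and 1.05 ± 0.09. The cleavage system's carrier protein, ppl, differed by 0.20 ± 0.07 and did not pass (adjusted p = 0.0853, limma).

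The purine enzymes rose at successive steps of the pathway. Prat2, for the first committed step, rose by 1.26 ± 0.10, Gart by 1.74 ± 0.09, Pfas by 1.43 ± 0.09, Paics by 1.20 ± 0.09 and Adsl by 1.18 ± 0.09. Its paralog Prat differed by -0.19 ± 0.09 and Adss, which makes adenylosuccinate, by -0.08 ± 0.07, and neither passed. In the serine pathway CG6287, CG11899 and aay, the dehydrogenase, aminotransferase and phosphatase that make serine in sequence, rose by 0.55 ± 0.09, 1.22 ± 0.08 and 0.67 ± 0.08. Of the enzymes of the methionine cycle, Ahcy rose by 0.92 ± 0.07, while Sam-S, the S-adenosylmethionine synthase gene, differed by 0.15 ± 0.09 and did not pass (adjusted p = 0.296, limma). Sardh, which recovers the carbon from sarcosine, rose by 1.25 ± 0.10.

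The egg arrays were the low ones for most of these enzymes. Of the 23 that rose, the lowest Su(var)3-9 array was above the highest egg array at 21, and the lowest control array was above the highest egg array at 20. The 23 were called against these same egg arrays, which favours genes where those arrays read low. The counts are therefore a description and no support, and the matching shares over all genes were not counted. Gart averaged 8.45 in the egg mutant, 10.18 in the double mutant and 9.60 in the Su(var)3-9 mutant, and the control arrays read 9.61, 9.78 and 9.75. Shmt read 10.45, 10.70 and 10.61 on the control arrays. Against the Su(var)3-9 mutant, Shmt was higher in the double mutant by 0.55 (adjusted p = 0.00419, limma) and Gart by 0.58 (adjusted p = 0.00157).

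**Figure D3:**
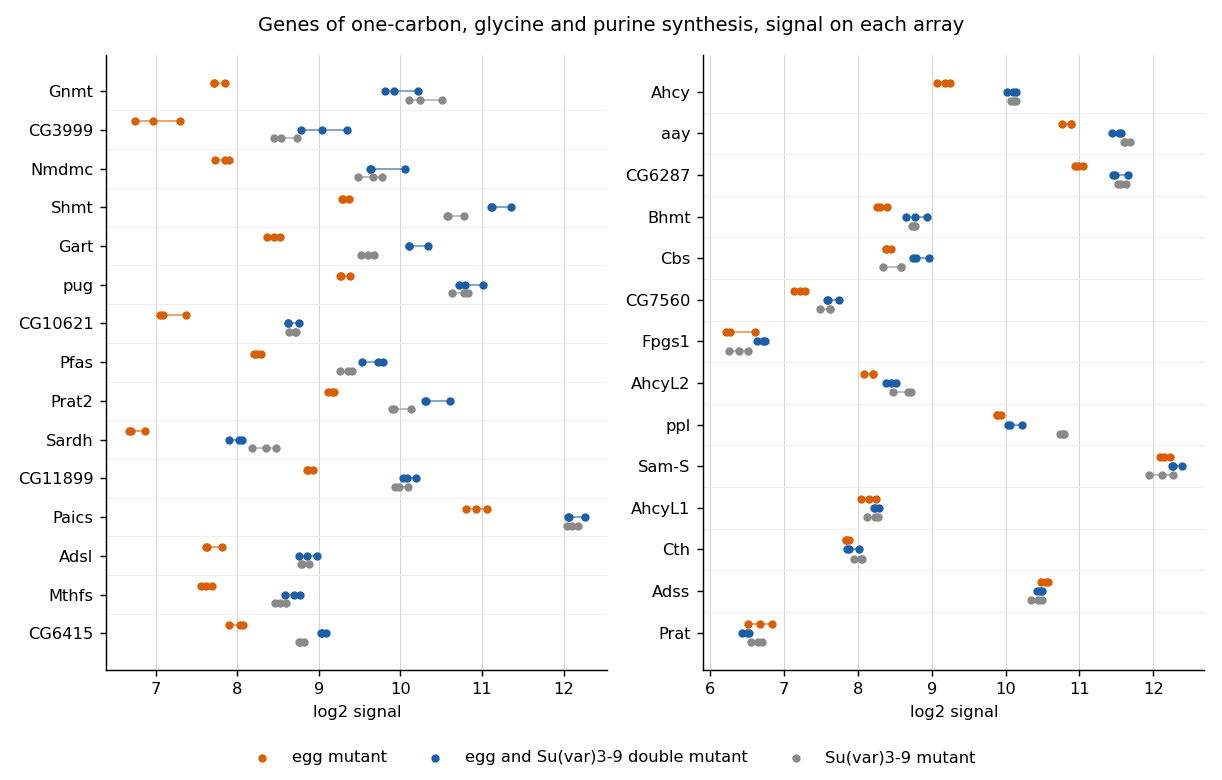
Each point is 1 array, with the log2 signal of the 29 genes of one-carbon, glycine and purine synthesis in the egg mutant, the double mutant and the Su(var)3-9 mutant, sorted by the difference between double and egg mutant. The egg arrays lie to the left of the double mutant arrays without overlap at 25 genes, of which 23 passed the test. Over all probe sets, 39.3% did not overlap in either direction, and this list was drawn up after the values were seen.

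A few genes were high in the double mutant alone. CG14419, an uncharacterised gene of the X chromosome, read 4.18, 4.07 and 4.21 in the egg mutant, 4.17, 4.05 and 4.29 in the Su(var)3-9 mutant, and 6.45, 6.52 and 6.27 in the double mutant. It stood 4.80-fold above the egg mutant and 4.72-fold above the Su(var)3-9 mutant (limma adjusted p = 1.67e-08 and 7.81e-09). AttD, an attacin of the antimicrobial response, read 6.24, 6.27 and 5.92 in the double mutant, no higher than 4.66 on an egg array and no higher than 4.55 on a Su(var)3-9 array. It rose by 1.58 ± 0.13 against the egg mutant and by 1.78 against the Su(var)3-9 mutant.

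The probe set that rose most of all was a dimmer one of CG40485, a gene near the centromere of the X chromosome, and it is named here after its values were seen. It read 5.95, 5.73 and 6.29 on the egg arrays, 11.14, 11.42 and 11.24 on the double mutant arrays, and 9.37, 9.98 and 9.33 on the Su(var)3-9 arrays, a rise of 5.28 ± 0.18 over the egg mutant (limma adjusted p = 5.84e-09). The brightest probe set of CG40485 rose by 0.43 ± 0.12 (adjusted p = 0.027, limma). Likewise a dimmer probe set of teq, which encodes the serine protease Tequila, read 7.44, 7.49 and 7.66 in the double mutant against 4.43 to 4.67 in the egg mutant and 4.69 to 4.72 in the Su(var)3-9 mutant. The brightest probe set of teq fell by 0.48 ± 0.10 (adjusted p = 0.007, limma), so the 2 probe sets of this gene moved in opposite directions. Of 72 genes with several probe sets that passed, 9 had calls in both directions. Among probe sets with no gene name, 1631803_at rose by 2.84 ± 0.18 and 1635636_at fell by 2.66 on the log2 scale, from 10.42, 10.30 and 10.22 to 7.77, 7.63 and 7.55.

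hll, a gene of the acyl-CoA synthetase family, read 4.51, 4.67 and 4.70 in the egg mutant and 7.58, 7.55 and 7.66 in the double mutant. It rose by 2.97 ± 0.14 and was also 1.14 above the Su(var)3-9 mutant (limma adjusted p = 8.01e-08 and 2.40e-04). The control arrays read 7.23, 7.66 and 7.13 for hll, so the egg arrays stood lowest of the 4 groups. CG34134, CG3999 and CG13056 completed the 12 largest rises, and of them CG34134 rose by 2.14 ± 0.08 and CG13056 by 1.84 ± 0.12.

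The genes that fell most were digestive enzymes of the midgut. CG12374, a carboxypeptidase, read 11.39, 10.92 and 10.44 on the egg arrays and 5.01, 6.65 and 5.46 on the double mutant arrays. No arrays overlapped, as the rule for picking the largest falls required. The gene fell by 5.21 on the log2 scale, with an SE of 0.57, or 37.1-fold (limma adjusted p = 6.72e-05). Jon65Aiv, a Jonah serine protease, read 12.09, 11.49 and 11.17 against 4.85, 8.77 and 6.98, with the double mutant arrays almost 4 log2 units apart. The serine protease gene yip7 read 12.01, 11.36 and 11.14 against 6.04, 8.15 and 6.39, and fell by 4.64 on the log2 scale. Double mutant replicate 2 was the highest of its group for all 3 genes. Of the 35 digestive tract genes measured 22 fell and none rose, with a median of -1.43. With double mutant replicate 1 left out 14 fell, as with egg replicate 1 left out.

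Genes of the male reproductive tract fell as well. Dup99B, a peptide of the ejaculatory duct related to sex peptide, read 9.38, 9.29 and 9.52 in the egg mutant and 4.42, 5.95 and 4.99 in the double mutant. It fell by 4.28 on the log2 scale with an SE of 0.28. Of 23 accessory gland and ejaculatory bulb genes 20 fell and none rose, with a median of -2.66. Without double mutant replicate 1, or without replicate 3, 10 fell. Of 33 testis genes 20 fell and none rose, with a median of -0.82, and ocn, a sperm protein gene, read 8.63, 8.67 and 8.74 against 5.80, 7.34 and 5.11. The seminal fluid gene Acp63F fell by 3.15 on the log2 scale (adjusted p = 0.00951, limma), with a range of 5.02 to 7.54 over the double mutant arrays.

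The arrays of the double mutant were not alike in these tissue markers. The median of the 23 accessory gland genes was 8.92, 9.12 and 9.21 on the egg arrays and 5.71, 7.54 and 5.74 on the double mutant arrays. On the Su(var)3-9 arrays it was 4.35, 4.51 and 6.46, and on the control arrays 11.39, 10.73 and 11.19. The digestive tract median was 7.29, 6.90 and 6.46 in the egg mutant, 4.92, 5.74 and 5.20 in the double mutant, 4.99, 4.94 and 6.69 in the Su(var)3-9 mutant, and between 10.05 and 10.69 on the control arrays. The egg and double mutant arrays did not overlap in either median, and double mutant replicate 2 lay nearest to the egg arrays in both. How far the content of such tissues in the preparations enters the other differences was not tested.

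**Figure D4:**
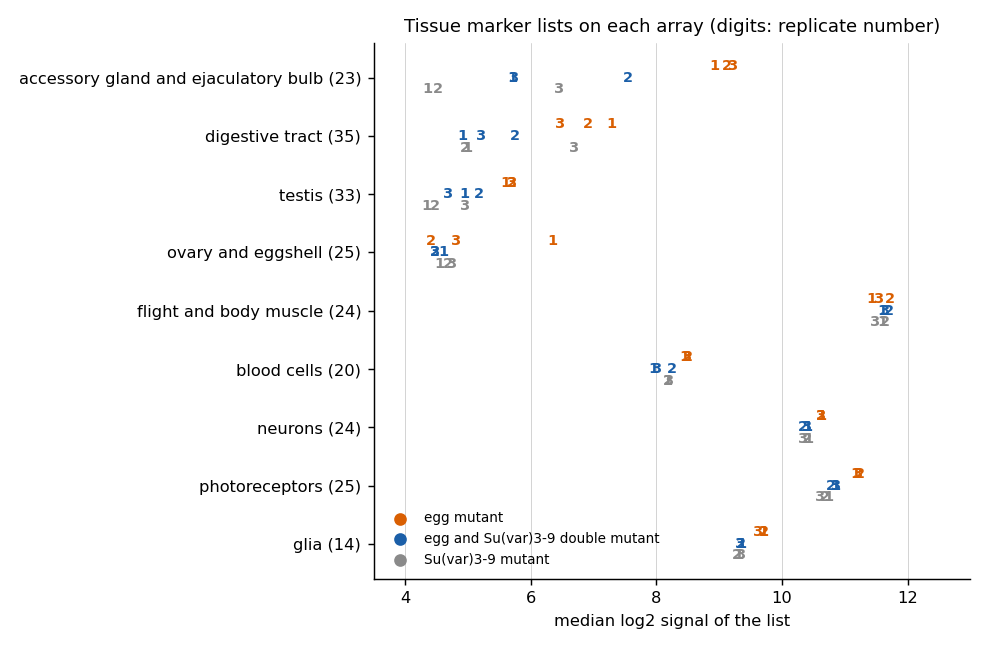
Each digit is 1 array, named by its replicate number and placed at the median log2 signal of a marker list, with the number of genes measured in brackets; colours give the egg mutant, the double mutant and the Su(var)3-9 mutant. The egg arrays lie above the double mutant arrays for the accessory gland, digestive tract and testis lists, Su(var)3-9 replicate 3 lies at 6.69 for the digestive tract list, and egg replicate 1 stands apart for the ovary and eggshell list at 6.34.

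The median of the ovary and eggshell list set egg replicate 1 apart, but single genes did not all follow it. Of 25 measured 4 fell and none rose, namely Cp15, Cks30A, exu and orb. The falls of exu and orb were 1.78 and 1.06 on the log2 scale. For exu the control arrays read 10.31, 9.59 and 9.87, above every egg array, while the list's median there was 4.68 to 4.87. Double mutant replicate 2 was nearest to the egg arrays for exu, at 6.71. The median of the testis list was likewise highest on the control arrays and, among the double mutant arrays, on replicate 2. Cp15, a chorion protein, read 11.44, 6.01 and 8.10 on the egg arrays and 4.61, 4.35 and 4.54 in the double mutant, a fall of 4.02 on the log2 scale (limma adjusted p = 0.00978) that came to -2.56 with egg replicate 1 left out. The egg arrays were far apart for this gene, with an SD of 2.74 against 0.14 in the double mutant. The fit used 1 spread for all 4 groups. The list's median was 6.34 on egg replicate 1 against 4.41 and 4.81 on the other two, and its median difference of -0.64 became 0.02 without that array. Cks30A, a cyclin-dependent kinase subunit required in the female germline, behaved otherwise. It read 8.88, 8.88 and 8.84 in the egg mutant and 6.48, 6.18 and 6.18 in the double mutant, and fell by 2.59 with an SE of 0.13 (limma adjusted p = 1.77e-07). In the Su(var)3-9 mutant and the control it read between 6.02 and 6.50, so the egg arrays alone were high.

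**Figure D5:**
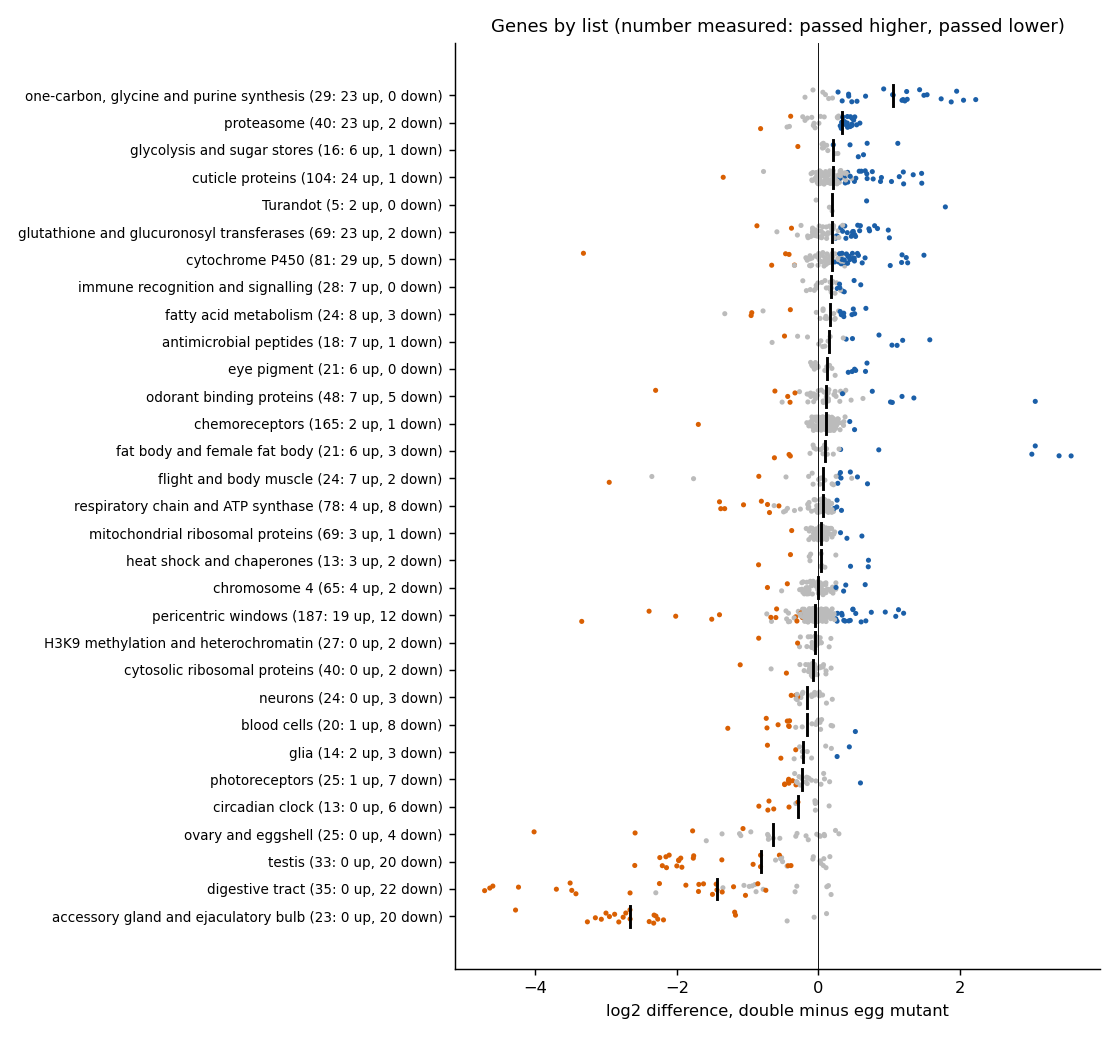
Each point is 1 gene, placed by its log2 difference of double minus egg mutant and grouped by gene list; blue genes passed higher, orange genes passed lower, grey genes did not pass, and the black bar is the list's median. The lists run from a median of -2.66 for the accessory gland to 1.05 for one-carbon, glycine and purine synthesis, the list drawn up after the values were seen.

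Medians of the photoreceptor, neuron and glia lists lay between 9.3 and 11.2 on the 6 arrays. Over all genes the medians were 6.88 to 6.98. Differences of single genes in these lists ran from -0.72 in glia to 0.60 among photoreceptor genes. The photoreceptor channel gene trp read 13.81, 13.84 and 13.78 in the egg mutant and 13.29, 13.29 and 13.41 in the double mutant, a fall of 0.48 on the log2 scale with an SE of 0.09. Of 25 photoreceptor genes 7 fell and 1 rose. The riser was ort (0.60 ± 0.08), a histamine-gated channel of the cells that receive photoreceptor input. With arrays centred on their medians 3 of the 25 fell. Of 24 neuronal genes 3 fell, or 12.5% against 10.1% of all genes, and with median centring none passed at an adjusted p under 0.05. The 3 were fne, elav and cac, lower by 0.38, 0.32 and 0.29 on the log2 scale. The call of cac was lost with any one of the 6 arrays left out, and that of fne without double mutant replicate 1. In glia, the GABA transporter Gat fell by 0.72 with an SE of 0.09, and the sugar transporter Tret1-1 rose by 0.44 ± 0.11, a call lost without egg replicate 1 or 3 or double mutant replicate 3.

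Genes of the circadian clock were lower in the double mutant. Of 13 measured 6 fell and none rose, with a median of -0.29. Clk, the activator of the loop, read 8.64, 8.53 and 8.59 against 7.72, 7.67 and 7.85, and fell by 0.84 with an SE of 0.07 (limma adjusted p = 1.17e-05). Its target vri fell by 0.71, the neuropeptide gene Pdf by 0.70 and tim by 0.63. These 4 were named as the called clock genes with the largest changes. The groups did not overlap for any of them, as at 39.3% of all probe sets. The hour at which flies were collected is not given in the labels, and its part was not tested.

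Of 21 eye pigment genes 6 rose and none fell. se and pr, which act in pteridine synthesis, rose by 0.69 ± 0.10 and 0.51 ± 0.09. ry, the xanthine dehydrogenase that acts on both purines and pteridines, rose by 0.67 ± 0.10, and st, a pigment precursor transporter, by 0.53 ± 0.08.

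Immune and stress genes moved in both directions. Of 18 antimicrobial peptide genes 7 rose and 1 fell. Def, an insect defensin, read 8.77, 8.55 and 8.95 against 10.08, 9.85 and 9.93, and rose by 1.19 ± 0.12. edin rose by 1.11 ± 0.16 and Drsl4 by 1.04 ± 0.09, while Drs, the antifungal drosomycin, fell by 0.48 with an SE of 0.12, a call lost without double mutant replicate 3. Of 28 genes of immune recognition and signalling 7 rose, led by pirk (0.60 ± 0.12), a negative regulator of the Imd pathway, and none of the 28 passed once egg replicate 1 and double mutant replicate 2 were both left out. TotC, a secreted Turandot stress protein, read 8.51, 8.65 and 9.10 against 10.55, 10.53 and 10.57, and rose by 1.80 ± 0.21.

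Of 13 heat shock and chaperone genes 3 rose and 2 fell. The largest change was a fall in Hsc70-2, of 0.84 with an SE of 0.19 (adjusted p = 0.00799, limma). For Hsc70-2 the control arrays read 7.82, 6.99 and 7.43, above every egg array, as did the median of the testis list. The small heat shock gene Hsp27 rose by 0.71 ± 0.13 and Hsp68 by 0.71 ± 0.11. Both were also above the Su(var)3-9 mutant, by 1.07 and 1.11. Of 20 blood cell genes 8 fell and 1 rose. Hml, a clotting protein of hemocytes, read 9.45, 9.25 and 9.37 against 8.02, 8.20 and 8.02, and fell by 1.28 with an SE of 0.09 (limma adjusted p = 2.78e-06). It stood lower still in the Su(var)3-9 mutant, at a mean of 6.90. The phagocytosis receptor genes eater and NimC1 fell by 0.74 and 0.73.

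Rises numbered 29 and falls 5 among 81 cytochrome P450 genes, whose median was 0.19. Cyp309a1, Cyp6a8 and Cyp6g1, the last known for insecticide resistance, rose by 1.49 ± 0.11, 1.26 ± 0.10 and 1.24 ± 0.10. Cyp4g1, the hydrocarbon-forming P450 of oenocytes, fell by 3.32 on the log2 scale with an SE of 0.93 and with double mutant arrays at 7.95, 10.90 and 8.69. Its call was lost when any egg array, or double mutant replicate 1 or 3, was left out, with adjusted p up to 0.124 (limma). Of 69 glutathione and glucuronosyl transferases 23 rose and 2 fell, among them GstZ1 (2.01-fold) and GstE14 (1.99-fold) on the higher side and Ugt35C1 on the lower side (-0.87 ± 0.10).

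Of 16 genes of glycolysis and sugar stores 6 rose and 1 fell. AGBE, the glycogen branching enzyme, read 9.81, 9.99 and 9.86 against 11.01, 11.07 and 10.95, and rose by 1.12 ± 0.07. Tps1, which makes trehalose, rose by 0.69 ± 0.07, and the glycogen phosphorylase Glyp and synthase Glys rose by 0.64 ± 0.08 and 0.57 ± 0.08. Of 104 cuticle protein genes 24 rose and 1 fell, and Cpr97Eb rose by 1.46 ± 0.13. Of 48 odorant binding protein genes 7 rose and 5 fell, or 14.6% and 10.4%, near the 9.61% and 10.1% of all genes. Obp99a rose by 1.35 ± 0.12, while Obp51a fell by 2.30 on the log2 scale. For Obp51a the control arrays read 9.26, 8.62 and 9.08, above every egg array, as did the median of the accessory gland list. Of 165 chemoreceptor genes 2 rose and 1 fell, and under median centring 33 rose. The faller, Ir76a, an ionotropic receptor, read 6.84, 6.54 and 6.72 against 5.12, 5.04 and 4.84.

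Among 40 proteasome genes 23 rose, 2 fell and 15 did not pass, and the median was 0.34. Split by name after the values were seen, 23 of the 26 genes without a suffix R or T rose, with differences from 0.27 to 0.59 over the 26, and none of the 14 genes with that suffix did. Prosalpha6, of the catalytic core, read 9.55, 9.49 and 9.62 against 10.19, 10.06 and 10.16, and rose by 0.59 ± 0.11. Without egg replicate 1, 14 passed higher, and without both that array and double mutant replicate 2, 5 did. The testis paralog Prosbeta5R1 fell by 0.82 with an SE of 0.12. In the respiratory chain list, 4 of 78 genes rose and 8 fell, or 5.13% and 10.3% against 9.61% and 10.1% of all genes. The leading falls were COX4L, COX5BL, COX7AL and COX6CL, at -1.40, -1.38, -1.32 and -1.06, which are paralogs of cytochrome oxidase subunits. On the control arrays these paralogs read above every egg array, as did the median of the testis list. With median centring 28 of the 78 rose. Of 40 cytosolic ribosomal protein genes none rose and 2 fell, and of 69 mitochondrial ones 3 rose and 1 fell, or 19 and none at an adjusted p under 0.05 under median centring.

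Few genes of the H3K9 methylation system passed. Of 27 measured none rose and 2 fell, or 7.41% called against 19.7% of all genes, a difference that was not tested. The list's median was -0.04. Pof, which coats chromosome 4, read 7.85, 7.99 and 8.16 against 7.15, 7.53 and 6.78, and fell by 0.84 with an SE of 0.20. The control arrays read 10.57, 9.89 and 10.17 for Pof, and its call was lost with egg replicate 3 left out (adjusted p = 0.0508, limma). The gene of HP1a itself read 9.80, 9.66 and 9.83 against 9.43, 9.52 and 9.46, and fell by 0.29 with an SE of 0.07, a call lost without egg replicate 1 or 3 or double mutant replicate 1, and under median centring.

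By position, chromosome 4 held a smaller share of calls than all genes, a difference that was not tested. On chromosome 4, where egg acts, 4 of 65 genes rose and 2 fell, 9.23% against 19.7% of all genes. The 4 were Zip102B (0.66 ± 0.09), a zinc transporter family gene, Rnf11 (0.39 ± 0.08), CG33978 (0.36 ± 0.08) and myo, a myostatin-like ligand (0.25 ± 0.08), whose call was lost without egg replicate 1 or 3 or double mutant replicate 1 or 3. The 2 were Gat and Ekar, a glutamate receptor subunit (-0.44 ± 0.09). With median centring 12 rose. Rnf11 also differed between the mutants that share Su(var)3-906: it averaged 10.22 in the double mutant and 11.66 in the Su(var)3-9 mutant. The share of genes called was between 18.4% and 22.1% on the 5 long arms, the highest being 3R, which holds Su(var)3-9. Within 2 Mb of Su(var)3-9, 47 of 412 genes rose and 39 fell, or 20.9%.

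Of 187 genes in windows next to the centromeres 19 rose and 12 fell, or 16.6%. TwdlG, a cuticle protein gene, read 6.28, 6.23 and 6.20 against 7.56, 7.53 and 7.24, and rose by 1.21 ± 0.14. It was also 0.57 above the Su(var)3-9 mutant (adjusted p = 0.0364, limma). CG14645, FASN3, CG15219, Scp1 and COX4L led the falls, at -3.35, -2.39, -2.02, -1.51 and -1.40. Of these, CG15219 lost its call without double mutant replicate 1 or 3 or egg replicate 3, and Scp1 without any one egg array or double mutant replicate 1 or 3. On the control arrays these 5 genes read above every egg array, as did the gut and male tract lists.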

How the data were processed

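Whole-head RNA was hybridised to Affymetrix arrays, and the deposited table gives 1 log2 value per probe set and array, made by the authors with RMA and limma per the submitters' processing notes. Versions and array scaling are not given in the sources used here. The column of a second, technical control array held no values and was not used. Of 18952 probe sets, 183 array controls were removed. Gene symbols came from the platform annotation, updated through RefSeq genes: 13647 probe sets had 1 symbol, 402 several and 4720 none, and a gene was taken at its brightest probe set over 12 arrays (11982 genes).

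Group means of the 4 genotypes were fitted over the 12 arrays with limma 3.58.1 in R 4.3.3 (lmFit, eBayes, 8 residual and 4.162 prior degrees of freedom), two-sided, with Benjamini-Hochberg adjustment over 18769 probe sets at 0.05. The replicates are labelled as biological. SEs and p-values rest on 1 spread per probe set, pooled over all 4 groups and moderated across probe sets. They can therefore be too small where the 2 compared groups vary more than the others. Arrays give no read depth, so 3 arrays per group limit the precision: the median SE of a difference was 0.103. On simulated data for this comparison (18769 probe sets, 200 of them changed), 94% of changes of 1 and 99% of changes of 2 on the log2 scale were recovered, with 9 false calls. Each simulated probe set had 1 spread for all groups and was drawn independently of the others. Genes at least 2-fold lower had unequal spread (median SD 0.477 in the double mutant, 0.164 in the egg mutant), so these rates do not cover them. Summaries used Python 3.11.15, pandas 2.3.3, numpy 2.4.6 and matplotlib 3.10.9. Tissue, pathway and position lists (windows of 2 Mb around each mutated gene, and windows next to the centromeres, placed on RefSeq's Release 6) were described by counts and medians. Named genes were the 12 largest rises and falls among called genes without overlap of arrays, up to 4 called genes per list with the largest change (6 for regions), and the largest rise and fall without a name. Other genes of the fat body, antimicrobial and one-carbon lists, CG40485 and teq were named after their values were seen. Members and lists were chosen with earlier results of these data known. Alternatives were other sets of arrays, a replicate block, array weights, trended spread, a filter on dim probe sets, 3 scalings, a 1.5-fold minimum and each array left out.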

Additional observations from a re-analysis of the deposited data

How the results depend on the processing

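Against 1485 higher and 1430 lower probe sets, array weights gave 2496 and 2409, centring on the median 3765 and 980, the 1.5-fold minimum 492 and 805, and leaving out both egg replicate 1 and double mutant replicate 2 gave 841 and 905. With single arrays left out the counts were 1022 to 1641 higher and 970 to 1831 lower. For the double mutant against the Su(var)3-9 mutant, 971 passed in the main setting, 529 without those 2 arrays, 392 with the 1.5-fold minimum and 610 to 1148 with single arrays left out. The cause of these shifts was not tested, except that leaving out arrays removes samples and a minimum fold removes small changes. No pairing by replicate number was evident. Deviations from group means correlated at 0.0951, 0.1015 and -0.1386 for same-numbered egg and double mutant arrays. Differently numbered arrays gave -0.1942 to 0.1098. With 3 arrays per group these deviations depend on each other, so the values cannot exclude a pairing. With a replicate block 1293 probe sets were higher and 1249 lower, and 761 passed against the Su(var)3-9 mutant. Over the 135 named genes and probe sets, 3099 values under alternatives gave no reversal, and 169 lost the call. The loss was commonest with the 1.5-fold minimum (32), with both arrays left out (22) and without double mutant replicate 1 or 3 (18 each). With single arrays left out, fln lost its call most often, 7 times.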
